A study of Arabidopsis thaliana with 5 samples.

Results

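The calmodulin-like (CML) genes described here are 10 loci, chosen by name for their known link to touch, wounding and other stimuli that move calcium: CML9 (AT3G51920), CML10 (AT2G41090), CML12 (AT2G41100, also TCH3), CML23 (AT1G66400), CML24 (AT5G37770, also TCH2), CML37 (AT5G42380), CML38 (AT1G76650), CML39 (AT1G76640), CML41 (AT3G50770) and CML42 (AT4G20780). All 10 were found among the 33559 loci measured. The RNA was total RNA from roots of Arabidopsis thaliana plants, labelled Col-1 and cultivated for 5 weeks, and it was sequenced as 5 libraries of 1 per group. At 4 d there was a control, whose Mg level the labels do not give, a low Mg group (0.5 µM Mg2+) and a high Mg group (10 mM Mg2+). At 7 d there was a low Mg group (0.5 µM) and a high Mg group (10 mM), and no control of that day was analysed here. No group carried a transgene or mutation in the labels, and the number of plants behind each library is not given in the sources used here.

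Calcium ions carry signals inside plant cells: touch, wounding, cold or a microbe opens channels, and the rise in free calcium is read by proteins that bind it through loops called EF hands. Calmodulin is the conserved reader, and the CML proteins are its more varied relatives, many of which are made only after a stimulus. The TCH ("touch") genes were found in Arabidopsis because their transcripts build up within minutes of handling the plant, and root cells use the same readers while growing through soil and responding to salts.

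Levels are given as FPKM, a fragment count corrected for transcript length and library size, so they can be set against each other between genes. The libraries held an estimated 7.04 to 13.3 M mapped fragments, the smallest being low Mg at 7 d. Log levels of the 33280 nuclear loci correlated at r = 0.976 to 0.982 within 4 d and 0.977 within 7 d, and at 0.947 to 0.959 between days. No group has a replicate, so no p-value or standard error was computed. A 95% counting interval, from the estimated fragments of each gene, stands in where levels are compared. It covers counting error only, and neighbouring levels are those next to each other in rank. In roots sampled in bulk, fewer cells of a type and less RNA per cell cannot be told apart. All 7 root marker genes were above 0 in every library. The 6 shoot markers summed to 9.87 to 27.1 FPKM, against 619 to 2493 FPKM for the root markers, and at most 2 of them were at 0 in a library.

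The stretch upstream of a gene is where factors that act on it often bind, and it is shown for 5 genes. These are CML37, CML38 and CML39, the genes of widest range, and CML23 and CML24, which each hold 2 matches to the CGCG motif named below. Each run is the 250 bases before the start of the first transcript listed in RefSeq's TAIR10.1 annotation, printed 5′ to 3′ on the strand of the gene, which is the minus strand for all of them. Capitals mark matches, on either strand, to CGCG (the core bound by calmodulin-binding CAMTA factors), TTGAC (the W-box core bound by WRKY factors) or ACGTG (the core bound by abscisic acid-responsive bZIP factors), so that GTCAA and CACGT are matches read on the other strand. The CML23 window is chr1:24771394-24771643, that of CML24 chr5:14999620-14999869, that of CML37 chr5:16943821-16944070, that of CML38 chr1:28767713-28767962 and that of CML39 chr1:28765867-28766116. The CML38 window lies inside the span of its other listed transcripts but overlaps no exon, and the CML12 window, not printed, overlaps an exon of that gene's other transcripts.
CML23: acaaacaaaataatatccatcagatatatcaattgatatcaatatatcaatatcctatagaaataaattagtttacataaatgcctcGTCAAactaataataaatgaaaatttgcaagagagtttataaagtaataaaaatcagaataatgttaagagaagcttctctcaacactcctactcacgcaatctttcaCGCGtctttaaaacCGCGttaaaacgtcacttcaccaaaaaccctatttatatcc
CML24: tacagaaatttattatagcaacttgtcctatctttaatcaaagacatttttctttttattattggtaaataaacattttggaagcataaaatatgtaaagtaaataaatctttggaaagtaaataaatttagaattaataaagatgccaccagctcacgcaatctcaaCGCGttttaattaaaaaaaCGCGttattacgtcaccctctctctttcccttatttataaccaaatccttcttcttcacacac
CML37: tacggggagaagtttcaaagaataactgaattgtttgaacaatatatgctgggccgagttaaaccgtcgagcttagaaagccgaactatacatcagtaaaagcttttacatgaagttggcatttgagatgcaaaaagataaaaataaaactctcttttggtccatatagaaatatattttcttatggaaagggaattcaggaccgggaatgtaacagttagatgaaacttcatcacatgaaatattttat
CML38: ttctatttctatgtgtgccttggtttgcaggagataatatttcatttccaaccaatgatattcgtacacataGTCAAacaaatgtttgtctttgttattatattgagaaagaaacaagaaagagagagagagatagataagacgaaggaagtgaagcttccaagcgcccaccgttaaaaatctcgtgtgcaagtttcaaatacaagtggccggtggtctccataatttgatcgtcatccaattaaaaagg
CML39: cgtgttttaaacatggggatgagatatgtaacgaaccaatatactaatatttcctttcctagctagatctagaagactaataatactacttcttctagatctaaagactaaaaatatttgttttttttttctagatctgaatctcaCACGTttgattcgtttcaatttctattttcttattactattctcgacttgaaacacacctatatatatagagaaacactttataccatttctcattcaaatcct

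CGCG occurred in 3 of the 10 windows, with 2 matches each in CML23 and CML24 and 1 in CML9, and in 10.4% of the 27443 windows of the same length upstream of protein-coding genes. TTGAC occurred in 6 of 10, against 44.7% of all windows, and ACGTG in 2 of 10, those of CML12 and CML39, against 23.2%. In CML23 the CGCG matches ended 52 and 38 bases before the transcript start, and in CML24 they ended 79 and 60 bases before it. CML37 and CML41 held none of the motifs, and no match overlapped another. A match is a description of letters and not a binding site.

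**Figure D1:**
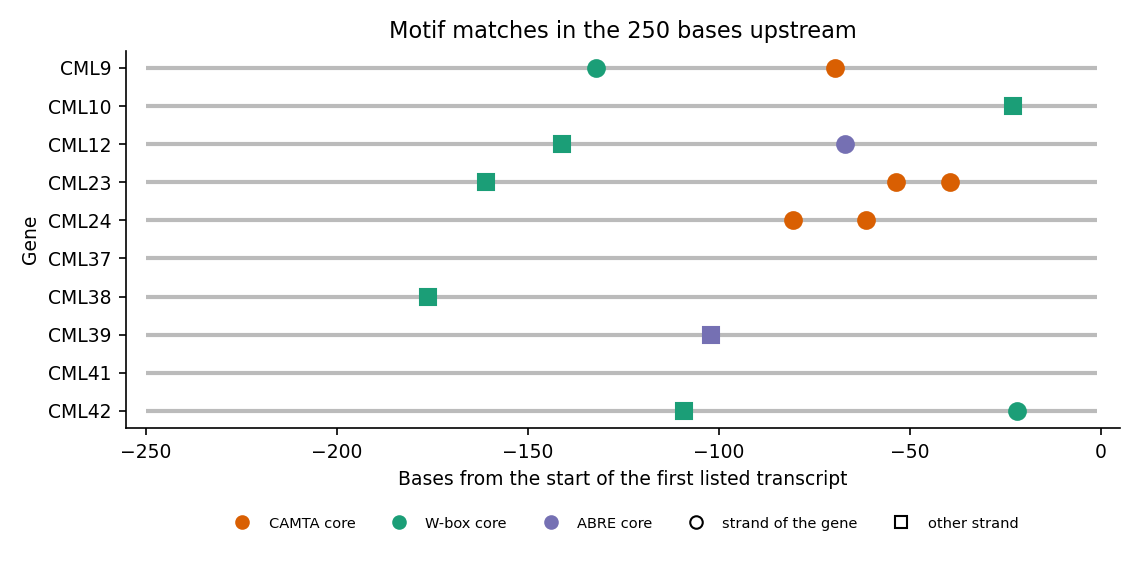
Positions of motif matches in the 250 bases upstream of the 10 CML genes. The x axis gives bases from the start of the first listed transcript, each grey line is a window, colours give the motif, circles the strand of the gene and squares the other strand. CML23 and CML24 each show a pair of CAMTA core matches near the start, while the lines of CML37 and CML41 are empty.

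Some of the 10 genes are close copies or neighbours. CML38 and CML39 lie on chromosome 1 on the same strand, 883 bases apart, and their coding sequences were 83.01% identical over 471 aligned bases. CML23 and CML24 were 81.2% identical and lie next to the calmodulin genes CAM4 and CAM1, at 2719 and 4846 bases. CML10, CML12 and CAM2 follow each other on chromosome 2 with 37 and 482 bases between them. The longest identical run was 58 bases between the transcripts of CML10 and CML12, 34 between CML38 and CML39 and between CML10 and CAM2, and 21 between CML23 and CML24. How reads in such runs were assigned is not given in the sources used here, so values of CML10 beside its far more abundant neighbours are the least certain.

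CML12, the touch gene TCH3, encodes a protein with extra EF hands. Its level was 217 FPKM in the control, 309.8 in low Mg and 58.3 in high Mg at 4 d, and 119 in low Mg and 106 in high Mg at 7 d. All 5 levels were apart by their counting intervals, low Mg at 4 d being the highest and high Mg at 4 d the lowest. At 4 d the high Mg library was lower than the control by a log2 ratio of -1.88 (of FPKM + 1), place 259 from the lowest of 15962 genes, and low Mg exceeded high Mg by 2.39. CML12 shares 272 exon bases with AT2G41105 and 243 with the noncoding AT2G09220, both on the opposite strand and not analysed here, so without strand information reads from them cannot be told apart.

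CML24, the touch gene TCH2, is known to act in flowering time and in responses to abscisic acid and ions. It stood at 36.9 FPKM in the control, 86.4 in low Mg and 57.3 in high Mg at 4 d, then at 32.8 in low and 36.4 in high Mg at 7 d. Both treated libraries of 4 d lay above the control and above 7 d, whereas the control and both 7-d libraries had overlapping intervals. The low Mg library at 4 d was 1.20 (log2) above the control, and high Mg was 0.62 above it. CML24 shares 419 exon bases with AT5G37760 on the opposite strand, which was at 0.493 FPKM or less in every library.

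CML23, the closest relative of CML24, was at 7.57 FPKM in the control, 12.3 in low Mg and 5.27 in high Mg at 4 d, and at 11.0 in low and 12.8 in high Mg at 7 d. Ranked by level, each library overlapped the next by its counting interval, and these intervals rest on 62.6 to 159 fragments. High Mg at 4 d was lowest and high Mg at 7 d highest, and their log2 ratio was 1.14. The intervals of that pair, 4.05 to 6.75 and 10.8 to 15.1 FPKM, did not overlap.

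CML37 acts in jasmonate-dependent defence against chewing insects and is switched on by wounding. It was at 5.75 FPKM in the control, 38.1 in low Mg and 4.50 in high Mg at 4 d, and at 1.71 in low and 4.18 in high Mg at 7 d. The low Mg library of 4 d stood alone at the top, and the control and both high Mg libraries had overlapping intervals. The level in low Mg at 4 d was 22.3-fold that in low Mg at 7 d, the widest range of the 10 genes.

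CML38 is known from flooded, oxygen-poor plants, where its protein gathers in granules with messenger RNA. It was at 7.26 FPKM in the control, 39.4 in low Mg and 9.55 in high Mg at 4 d, and at 5.18 in low and 12.04 in high Mg at 7 d. As for CML37, low Mg at 4 d stood apart from all other libraries. Ranked by level, each of those overlapped the next, but low and high Mg at 7 d were apart. Over the control the log2 ratio was 2.29 for CML38 and 2.54 for CML37, at places 96 and 79 from the highest of 15873 genes.

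CML39, the close copy of CML38 beside it on the chromosome, is known as a jasmonate-responsive gene of seedlings. It was at 1.85 FPKM in the control, 4.398 in low Mg and 15.8 in high Mg at 4 d, and at 2.73 in low and 25.3 in high Mg at 7 d. Here both high Mg libraries were above the other 3, and their intervals did not overlap them. High Mg exceeded the control by 2.56 (log2) at 4 d, place 96 from the highest of 15962 genes. The root marker PYK10, an abundant glucosidase of root tissue, was also highest in high Mg on each day, at 1992 FPKM against 626 in the control and 926 in low Mg at 4 d, and at 1063 against 276 in low Mg at 7 d. PLT1, named after its values were seen, was also highest in high Mg on each day but by far less, at 9.45 FPKM against 9.25 in the control and 8.01 in low Mg at 4 d, and at 4.28 against 3.77 at 7 d. Its log2 ratio to the control was 0.03, and at 7 d it was under 5 FPKM in both libraries and not compared. The other 5 root markers were not highest in high Mg on each day. The summed root markers were 1070.5, 1412 and 2493 FPKM in the control, low and high Mg at 4 d and 619 in low and 1317 in high Mg at 7 d. PYK10 was the largest part of every sum. Of 6 root markers compared at 7 d, COBL9 and EXPA7 were 2-fold higher in low than in high Mg. They were at 16.1 against 7.33 and 53.0 against 19.4 FPKM, and PYK10 alone was 2-fold lower. At 4 d COBL9 and EXPA7 were instead lower in low than in high Mg. Their levels there were 8.60 against 19.1 and 35.9 against 70.3 FPKM, with log2 ratios of -1.07 and -0.95. The part of root tissue makeup in the CML39 values was not tested.

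CML42, which takes part in trichome branching and in limiting defence against insects, had the narrowest range, at 53.9 FPKM in the control, 69.1 in low Mg and 46.5 in high Mg at 4 d, and 50.6 in low and 62.8 in high Mg at 7 d. CML9, a gene of abscisic acid, salt and flagellin responses, was at 238 FPKM in the control, 219 in low Mg and 111 in high Mg at 4 d, and at 128 in low and 134 in high Mg at 7 d. Its control and low Mg libraries of 4 d were above the other 3, and the log2 ratio of high Mg to the control at 4 d was -1.09.

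CML41, whose protein acts at the channels between cells when bacterial flagellin is sensed, ranged from 2.90 FPKM in high Mg to 6.15 in low Mg at 4 d, with the control at 4.04 and 3.04 in low and 3.84 in high Mg at 7 d. CML10, a calcium sensor tied to ascorbate synthesis, had the lowest median level of the 10, with 2.67 FPKM in the control, 2.83 in low Mg and 1.68 in high Mg at 4 d, and 1.06 in low and 0.758 in high Mg at 7 d. Ranked by level, no neighbouring levels of CML10, CML41 or CML42 were apart by their counting intervals, but the highest and lowest level of each gene were.

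**Figure D2:**
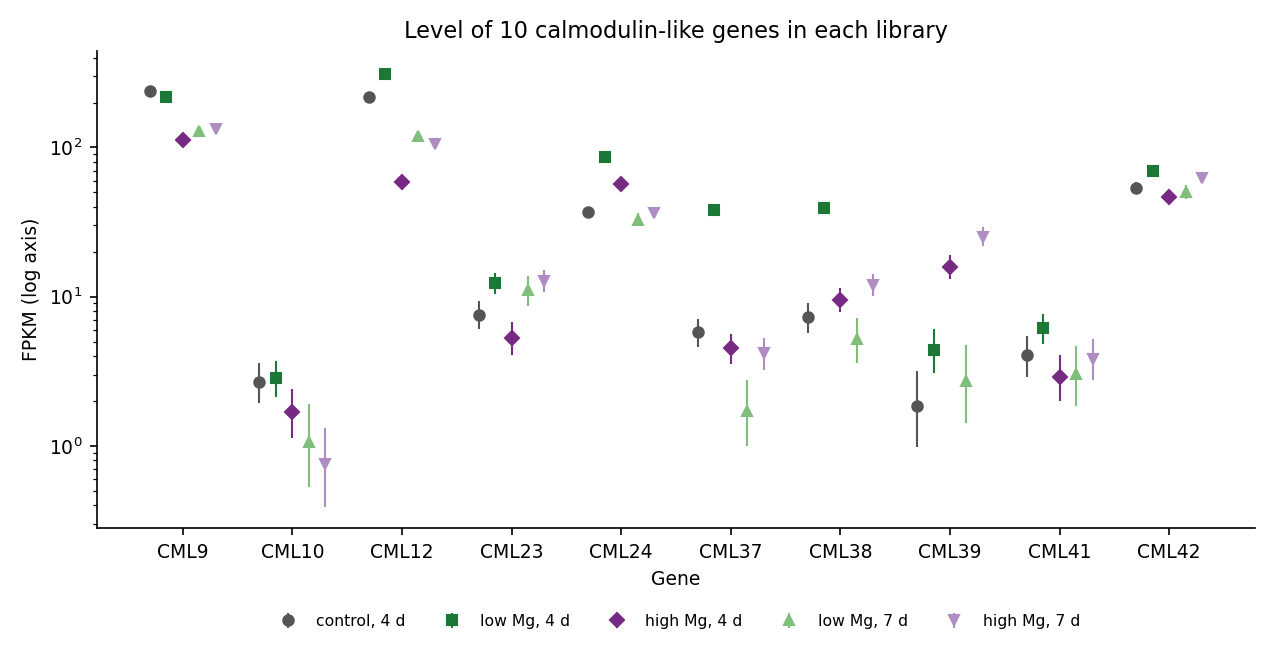
Level of the 10 CML genes in each of the 5 libraries, in FPKM on a log axis, with bars for the 95% counting interval (counting error only). On the deposited scale shown, low Mg at 4 d is the top point for 7 genes, including CML37 at 38.1 and CML38 at 39.4, whereas CML39 peaks in both high Mg libraries.

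Only 9 of the 10 genes reached 5 FPKM in any library, CML10 being the exception. On the deposited scale low Mg at 4 d was the highest library for 7 of the 10 genes including CML10, and for 6 of those 9, where 15.6% of the 16891 nuclear genes with 5 FPKM or more in a library had their highest value there. CML41 reached 5 FPKM in that library alone, at 6.15, so the minimum fixed its place among the 6. Of the 9, that count is 1, CML37, with 0.929% of all genes, when the libraries are rescaled to the same nuclear sum, and 5, with 13.3%, when each library's median is set to 0. High Mg at 7 d was highest for CML23 and CML39 (17.3% of all genes) and the control for CML9 (26.2%). High Mg at 4 d was the lowest library for 5 of the 9 (12.4% of all genes), and low Mg at 7 d for 3, near the 29.7% of all genes. Under the rescaling the control was lowest for 8 of the 9 and for 90.9% of all genes.

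Ratios were computed for genes with 5 FPKM or more in 1 of the libraries compared, and 2-fold means a log2 ratio at or beyond 1 in either direction (1 or -1). A gene that passes this minimum through its higher library alone had to differ: this holds for CML39 in each comparison where it counted as 2-fold and for CML37 against high Mg at 4 d and between days. CML41 passed through low Mg at 4 d alone in each comparison it entered, and was short of 2-fold in all of them. The first pair of comparisons shares the control library, and the others share libraries in turn, so they are set side by side and not correlated.

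Against the control at 4 d, low Mg was at least 2-fold higher for 3 of the 8 CML genes compared, CML24, CML37 and CML38, and 2-fold lower for none, while 2.16% of all 15873 genes compared were higher, 1.67% were lower and 3.83% were 2-fold apart either way. The median of the 8 was 0.57 (log2), against -0.02 over all genes. CML12 at 0.51, CML23 at 0.63 and CML41 at 0.50 fell short of 2-fold. High Mg was 2-fold higher for CML39 alone and 2-fold lower for CML9 and CML12, so 3 of 8 were called, where 2.52% of 15962 genes were higher, 3.83% were lower and 6.35% were either. The median of the 8 was -0.25, against 0.00 over all genes. The 6 heat-shock genes, which report protein damage, summed to 595 FPKM in the control and to 78.8 in low and 45.3 in high Mg at 4 d, and the part of this difference in the CML ratios was not tested.

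Low against high Mg at 4 d gave 5 of 9 CML genes at 2-fold, with CML12, CML23, CML37 and CML38 higher in low Mg at 2.39, 1.08, 2.83 and 1.94, and CML39 lower at -1.64. Over all 15837 genes, 3.69% were higher and 1.8% lower, 5.49% in all, and the medians were 0.97 for the 9 and -0.02 for all. CML9 missed the threshold at 0.97, as did CML41 at 0.87. At 7 d the same comparison gave CML38 lower at -1.08 and CML39 lower at -2.82, 2 of 7 compared and no gene higher, with 2.54% higher, 3.21% lower and 5.75% either way over 15684 genes. CML37 lay under 5 FPKM in both 7-d libraries and was not compared. Touch genes CML12 and CML24 were at 0.16 and -0.14.

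**Figure D3:**
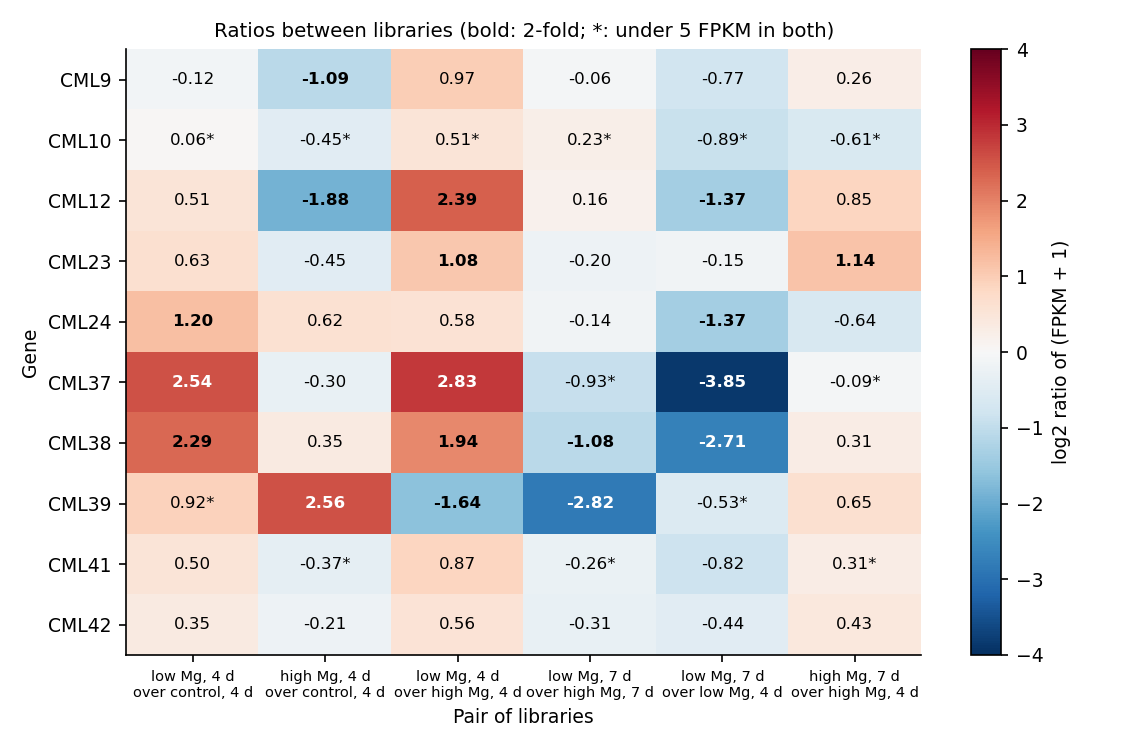
Log2 ratio of (FPKM + 1) for the 10 CML genes (y axis) in 6 pairs of libraries (x axis), with colour and number giving the ratio, bold a 2-fold difference and an asterisk a gene under 5 FPKM in both libraries. The columns of low Mg at 4 d are mostly red for CML12, CML37 and CML38, and CML39 is red in high Mg over the control at 2.56.

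Between days, low Mg at 7 d was 2-fold lower than at 4 d for 4 of 8 CML genes, CML12, CML24, CML37 and CML38, at -1.37, -1.37, -3.85 and -2.71. All 10 genes had a ratio below 0 on the deposited scale, and of the 8 compared CML37 and CML38 alone were below 0 under rescaling to the same nuclear sum. Lower levels were common in this pair: 38.8% of all genes had a ratio above 0, and 12.9% of 16182 genes were 2-fold lower, 4.03% higher and 16.9% either way, and the median of all genes was -0.16. High Mg at 7 d was 2-fold higher than at 4 d for CML23 at 1.14, 1 of 7 compared, where 4.65% of 16081 genes were higher, 11.3% lower and 16% either way and the median of all genes was -0.15. The tools listed for the 4-d samples are not listed for the 7-d samples, so day and processing cannot be told apart.

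The ratio of low to high Mg was larger at 4 d than at 7 d for 9 of the 9 CML genes with 5 FPKM in a treated library, and 2-fold larger for 7 of them. Among the treated libraries, CML37 and CML41 reached 5 FPKM in low Mg at 4 d alone, so their ratio at 4 d had to be above 0. Both genes are in both counts. Over 16678 genes, 48.1% had the larger ratio at 4 d and 6.66% were 2-fold larger, a count chosen after the values were seen. The median difference was 1.18 (log2) for the 9 genes and -0.02 over all genes. CML39 belongs to this count although it was higher in high Mg on both days, since its ratio was less negative at 4 d. Under the rescaling all 9 still had the larger ratio at 4 d, where 11.9% of all genes did, and 3 were 2-fold larger, CML12, CML37 and CML38, where 3.53% of all genes were.

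**Figure D4:**
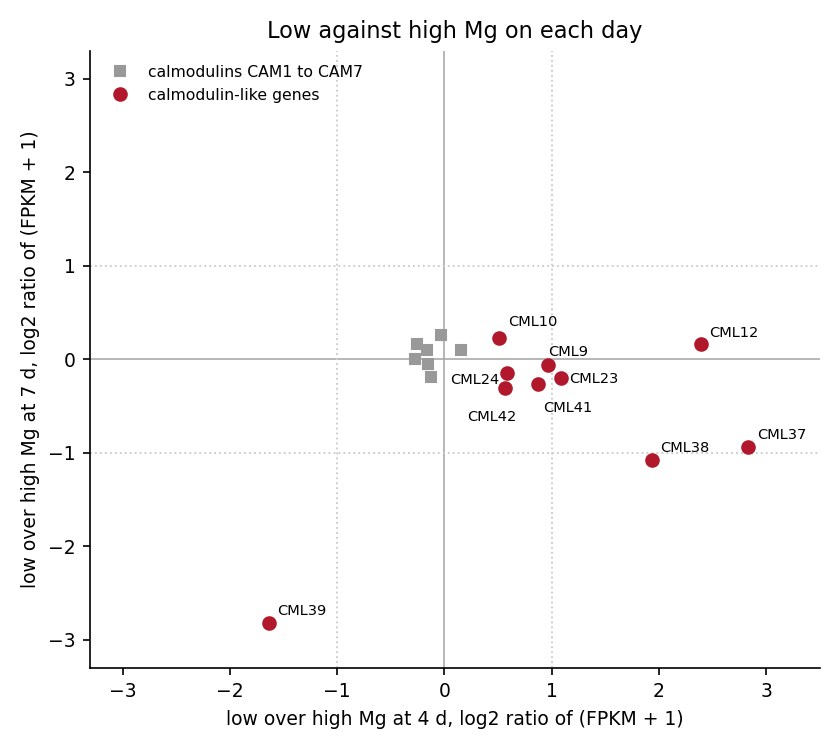
Low over high Mg at 4 d (x axis) against 7 d (y axis) as log2 ratios of (FPKM + 1), for the 10 CML genes (circles) and the calmodulins CAM1 to CAM7 (squares), with dotted lines at 2-fold. CML12, CML37 and CML38 lie far to the right at 2.39, 2.83 and 1.94, CML39 lies at the lower left, and the calmodulins cluster near 0.

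These counts depend on how the libraries are scaled. A single nuclear locus, AT2G01021, made up 82.3% of all FPKM in the control library, 75.5% and 57.5% for low and high Mg at 4 d, and 18.5% and 15.6% at 7 d. Rescaling each pair to the same nuclear sum therefore moved the median of all genes to 0.44 for low Mg and 1.22 for high Mg over the control, to -0.78 for low over high Mg at 4 d and -0.07 at 7 d, and to 1.92 and 1.24 between days for low and high Mg. Genes higher and lower then numbered 848 and 141 in place of 343 and 265 for low Mg over the control, 12230 and 228 in place of 402 and 612 for high Mg over the control, and 277 and 2413 in place of 585 and 285 for low over high Mg at 4 d. Between days they numbered 14280 and 249 in place of 652 and 2085 for low Mg, and 10481 and 263 in place of 747 and 1819 for high Mg, and with the median set to 0 they numbered 880 and 1638, and 954 and 1365. Under the rescaling CML37 and CML38 kept 2.98 and 2.74 for low Mg over the control, and CML39 kept 3.61 for high Mg over the control, but CML9 turned to 0.19 there and CML12 to -0.61, short of 2-fold. For low over high Mg at 4 d, CML12, CML37, CML38 and CML39 stayed past 2-fold at 1.60, 2.11, 1.18 and -2.34, and CML23 fell short at 0.38. In low Mg between days CML37 stayed 2-fold lower at -2.07, CML38 was at -0.70, and CML12 and CML24 turned to 0.81 and 0.79. There CML9, CML23 and CML42 became 2-fold higher, at 1.41, 1.90 and 1.72.

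The 7 calmodulin genes CAM1 to CAM7, which encode the conserved reader itself, stayed at 133 FPKM or more in every library, and none was 2-fold apart in any of the 6 comparisons on the deposited scale. CAM1 was at 471, 538, 549.6, 412 and 343 FPKM in the order control, low Mg and high Mg at 4 d, low Mg and high Mg at 7 d. In the same order CAM2 was at 180.3, 219, 261, 270.4 and 241 FPKM. Under the rescaling all 7 were 2-fold higher in high Mg than in the control, with a median of 1.51 where all genes had 1.22, and between days 7 of 7 were higher in low Mg and 5 of 7 in high Mg at 7 d. Over all genes, 12230 of 15962 were then 2-fold higher in high Mg than in the control. Between days 14280 of 16182 were higher at 7 d in low Mg and 10481 of 16081 in high Mg. Of the remaining calmodulins, CAM3 ranged from 224 to 269.8 FPKM, CAM4 from 315 to 413, CAM5 from 194 to 260.3, CAM6 from 133 to 160.4 and CAM7 from 260.1 to 391. The 6 CAMTA factors, calmodulin-binding regulators of transcription, had no 2-fold difference in any comparison on the deposited scale. Under the rescaling 5 of 6 were higher in high Mg than the control and 6 of 6 were higher at 7 d than at 4 d in both Mg levels. Most of all genes were higher there as well, by the counts just given.

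A list of 40 further EF-hand loci of the CML family was mixed. Against the control, low Mg was 2-fold higher for 4 and lower for 2 of the 28 compared, and high Mg higher for 2 and lower for 5 of 27. Of all genes compared, 2.16% were higher and 1.67% lower in low Mg, and 2.52% higher and 3.83% lower in high Mg. The medians were -0.06 and -0.04, close to those of all genes. Under the rescaling high Mg was higher for 16 and lower for 1, where 12230 of 15962 genes were higher and 228 lower. AT3G29000 was at 13.3 FPKM in the control, 100.5 in low Mg and 10.1 in high Mg at 4 d, and at 10.5 and 8.52 at 7 d, a peak in low Mg at 4 d like that of CML37. AT5G39670 was at 44.2, 120.0, 19.5, 37.2 and 49.6 FPKM in the same order. AT3G47480 was at 23.5 FPKM in the control and 1.19 in high Mg at 4 d, a ratio of -3.49. It passed the minimum of 5 FPKM through the control alone there, so this ratio had to be below 0. AT3G07490 was at 7.36 FPKM in low and 39.3 in high Mg at 4 d but at 20.9 and 4.46 at 7 d, with ratios of -2.27 and 2.01. At 7 d it passed the minimum through low Mg alone, so that ratio had to be above 0.

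Of 19 genes for calcium entry and export, ACA12 (AT3G63380), a calcium pump, stood 2-fold lower under high Mg at 4 d, at 3.29 FPKM against 24.8 in the control, and the other 13 of the 14 compared were not called. ACA12 passed the minimum of 5 FPKM through the control alone, so its ratio had to be below 0. Of 11 genes for calmodulin-binding proteins and partners, 9 were compared and high Mg lay 2-fold below the control for 3, among them CBP60G at 9.65 against 76.9 FPKM and SARD1 at 5.25 against 11.9, both activators of salicylic acid synthesis. In low Mg at 4 d SARD1 was at 26.5 FPKM, a log2 ratio of 1.10 to the control. Rescaling to the same nuclear sum left 1 gene of each list 2-fold lower in high Mg than the control and put 12 of 14 and 5 of 9 2-fold higher. Of all genes, 12230 of 15962 were then 2-fold higher and 228 lower.

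The 24 rapid touch and wound genes, a list of transcripts known to respond quickly to touch or wounding, held 17 that were compared at 4 d. The list was chosen with earlier results of these data known, so its counts are a description and no independent support. Low Mg was 2-fold higher than the control for 12 of 17 and lower for none, and higher than high Mg for 13 of 17. Low Mg at 7 d was 2-fold lower than at 4 d for 13 of 17. Among all genes compared, 2.16% were higher in low Mg than in the control, 1.67% lower, and 3.69% higher than in high Mg. Low Mg at 7 d was 2-fold lower than at 4 d for 12.9% of all genes. The list medians were 1.35, 1.71 and -1.56 (log2) in these comparisons, against -0.02, -0.02 and -0.16 over all genes. CAF1a, which shortens messenger RNA tails, was at 7.65 FPKM in the control, 122 in low Mg and 13.9 in high Mg at 4 d, and at 31.7 and 13.6 at 7 d. ZAT10, a zinc finger repressor listed as STZ, was at 44.5, 242, 29.8, 52.2 and 37.4 FPKM in that order. CAF1a and ZAT10 were thus highest in the same library as CML37 and CML38, low Mg at 4 d, on the deposited scale. Not all genes of the list were. XTH23 was at 21.5 FPKM in the control against 16.6 in low Mg at 4 d. JAZ1 was at 132 FPKM in high Mg at 7 d against 105 in low Mg at 4 d. Whether a response to handling had a part in the CML values was not tested. With the rescaling, 14 of 17 were higher in low Mg than in the control and 8 of 17 higher than in high Mg, while low Mg at 7 d was 2-fold lower for none and higher for 4. Over all genes, 848 of 15873 were then higher in low Mg than in the control and 277 of 15837 higher than in high Mg. Low Mg at 7 d was lower than at 4 d for 249 of 16182 genes and higher for 14280.

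A search chosen after the values were seen counted genes at least 2-fold above every other library in low Mg at 4 d. It found 128 of 16891 genes, 0.758%, among them CML37, CML38, 9 of the rapid touch and wound genes and 3 of the further EF-hand loci. Under the rescaling 0.243% of genes met it and none of the 10 did, while CML37 and CML38 both met it with medians set to 0. Both high Mg libraries were 2-fold above each of the other 3 for 41 genes, 0.243%, of which CML39 was the CML gene, and it met this under the rescaling (0.367% of genes) and with medians set to 0 (0.266%) too. CML39 reached the minimum of 5 FPKM in the high Mg libraries alone.

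The range over the 5 libraries, as highest minus lowest log2(FPKM + 1), had a median on the deposited scale of 1.37 for the 9 CML genes, from 0.56 for CML42 to 3.85 for CML37. It was 0.42 for the calmodulins, 0.63 for the CAMTA factors, 0.97 for 28 further EF-hand loci, 1.91 for 18 rapid touch and wound genes and 0.70 for all 16891 genes. CML37, CML39, CML38 and CML12 had the widest ranges of the 9.

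**Figure D5:**
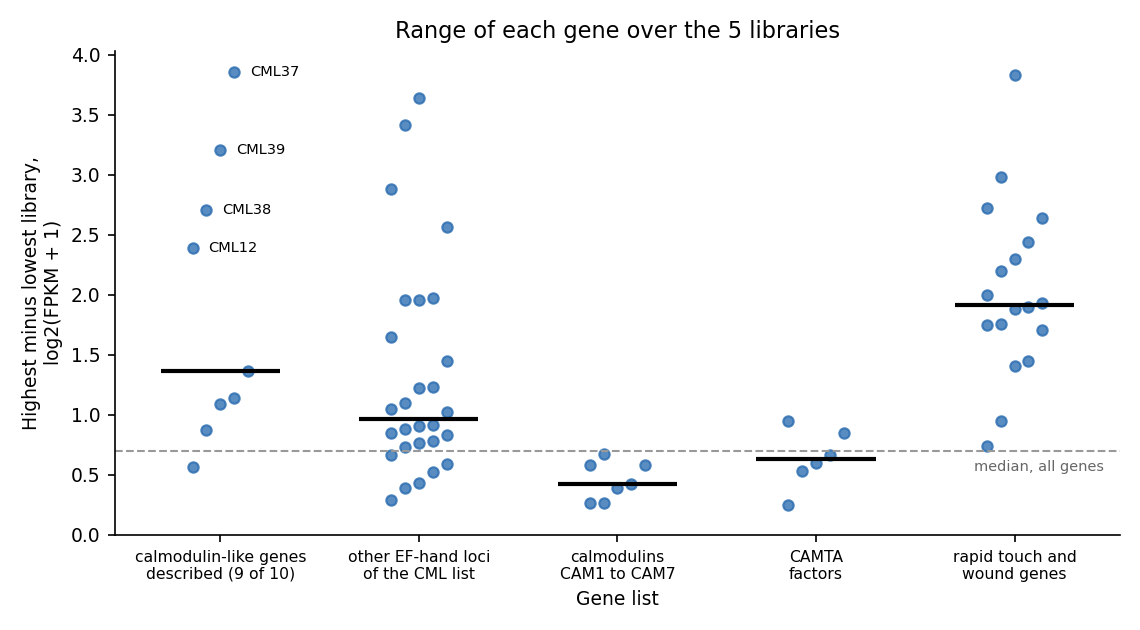
Highest minus lowest library of each gene, as log2(FPKM + 1), for the 9 CML genes with 5 FPKM in a library, further EF-hand loci, calmodulins, CAMTA factors and rapid touch and wound genes. Points are genes, bars the list medians and the dashed line the median of all genes at 0.70. The CML genes spread from 0.56 to 3.85, while every calmodulin lies below 0.70 on the deposited scale shown.

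For the 3 CML genes of widest range, the genes most alike were those with the smallest root mean square difference of centred log2(FPKM + 1) over the 5 libraries, among 16106 ranked. CML38 was closest to BCS1 (AT3G50930, difference 0.147), AT5G44568 (0.1703) and WRKY46 (0.269), which was at 5.61, 40.1, 7.35, 6.78 and 13.9 FPKM. CML37 was closest to AT4G21920 (0.354), AT5G44568 (0.364) and DIC2 (0.407), a mitochondrial dicarboxylate carrier. CML39 was closest to AT2G26370 (0.144), CYP705A12 (0.162) and AT5G02170 (0.247), and CYP705A12 was at 3.91, 7.44, 33.4, 5.62 and 37.9 FPKM, with the same pair of high Mg libraries at the top.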

How the data were processed

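Root RNA-seq values of 5 libraries were used as deposited. The authors deposited FPKM values; no label names the unit, which was read from the tool list and from the spacing of low values. Per the submitters' processing notes, TopHat2 2.0.8, Cufflinks 2.1.1 and TAIR10 were used for the 4-d samples, and TAIR10 alone is listed for the 7-d samples. The sources used here do not give strandedness or scaling between libraries. Groups came from the sample labels.

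Ratios were log2((a + 1)/(b + 1)) on FPKM, for nuclear genes with at least 5 FPKM in 1 of the libraries, and 2-fold means a ratio at or beyond 1 or -1. With 1 library per group no test was run. Fragments were estimated from the commonest FPKM times length of low values, for genes of 2000 bases or more, and 95% exact Poisson intervals were computed from them; they are approximate for short genes and depend on the RefSeq transcript length. Python 3.11.15, pandas 2.3.3, numpy 2.4.6, scipy 1.17.1 and Biopython 1.88 were used, and scripts were tested on simulated data. Names, exons and sequences came from RefSeq's TAIR10.1, in which 97.8% of loci were found.

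The CML genes and gene lists were chosen with earlier results of these data known. Named genes were the 10 CML genes, the 7 calmodulins, up to 3 highest and lowest list genes at 2-fold per comparison, neighbouring calmodulin genes, and the 3 genes most alike to each of the 3 widest-ranging CML genes; PLT1 was named outside that rule. A planned comparison of EF-hand loops and proteins was not run; coding-sequence identity was computed in its place. Upstream windows were read from the genome and not from a promoter table. Alternatives were pseudocounts of 0.1 and 5, a minimum of 20 FPKM or none, protein-coding genes of 500 bases or more, rescaling to the same nuclear sum (with the minimum kept on deposited FPKM) and the median ratio set to 0.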

Additional observations from a re-analysis of the deposited data

Results flagged for a closer look

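The log2 ratio of low over high Mg had opposite signs on the 2 days for CML23, CML37 and CML38. For CML23 it was 1.08 at 4 d and -0.20 at 7 d, where its 95% counting interval, computed with no pseudocount, ran from -0.64 to 0.19 and so covers 0. Rescaled to the same nuclear sum, CML23 was at 0.38 at 4 d and would not be listed. For CML37 it was 2.83 at 4 d and -0.93 at 7 d, where both libraries were under 5 FPKM. For CML38 it was 1.94 at 4 d and -1.08 at 7 d. Genes were listed where at least 1 day was 2-fold apart and the sign turned, a rule chosen after the values were seen. With 1 library per group and day the difference between days was not tested.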

How the results depend on the processing

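No paired analysis was possible because each group holds 1 library, and for the same reason no library could be left out in turn. The number of CML genes at 2-fold stayed within 1.5 times the reported number in the comparisons and settings not named next. A minimum of 20 FPKM gave 3 in place of 5 for low over high Mg at 4 d, 1 in place of 2 at 7 d and 0 in place of 1 for high Mg between days. It left 6, 5 and 5 CML genes to compare there, in place of 9, 7 and 7. A pseudocount of 5 gave 1 in place of 2 at 7 d and 0 in place of 1 for high Mg between days. For high Mg between days, rescaling to the same nuclear sum gave 6 and setting the median to 0 gave 2, all higher at 7 d. Of 16081 genes, 10481 and 954 were higher under these settings. Of the ratios at 2-fold on the deposited scale, the rescaling turned the direction of CML9 in high Mg over the control (0.19), and of CML12 (0.81) and CML24 (0.79) in low Mg between days. It turned 11 more that were short of 2-fold, so 14 of 47 changed sign. The rescaling also changed which genes were called where the number was alike: in high Mg over the control CML24, CML38, CML39 and CML42 were higher and none lower, and in low Mg between days CML9, CML23 and CML42 were higher and CML37 lower, in place of 4 lower. Over all genes, 12230 of 15962 were then higher in high Mg than in the control, and 14280 of 16182 higher in low Mg between days.

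Over all genes, the rescaling gave 989 in place of 608 for low Mg and 12458 in place of 1014 for high Mg over the control, 2690 in place of 870 for low over high Mg at 4 d, and 14529 in place of 2737 and 10744 in place of 2566 between days for low and high Mg. A pseudocount of 5 gave 401 in place of 608 for low Mg over the control and 560 in place of 902 at 7 d. A minimum of 20 FPKM gave 367, 570, 508, 466, 1781 and 1698 in the order of the 6 comparisons. Fewer genes were then compared, 8245 to 9049. The shares called were 4.15%, 6.42%, 5.77%, 5.65%, 19.7% and 18.9%, against 3.83%, 6.35%, 5.49%, 5.75%, 16.9% and 16% at 5 FPKM. Of 47 ratios of single CML genes, the rescaling moved 36 beyond their counting interval besides the 3 that turned from a 2-fold call, the pseudocount of 5 moved 7, the median set to 0 moved 6 and turned the sign of CML23 in low Mg between days, and the pseudocount of 0.1 and no minimum moved none. The scalings of counts over all 5 libraries were added after seeing the data and stand beside those counts. Levels under about 5 FPKM rest on few fragments, 10.7 for CML10 at the least.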
